A study of Mus musculus with 13 samples.

Results

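The regulatory islands of C-DOM, the domain on the centromeric side of the HoxD gene cluster, were described as the accessible regions on mouse chromosome 2 between 73950000 and 74650000 (mm10, the GRCm38 build), a window of 700 kb that holds the gene Lnpk. Members were all regions that the authors' peak caller listed in any of 13 ATAC-seq libraries with at least 1 bp in the window, merged wherever regions of different libraries overlapped. This gave 99 merged regions of the 284051 found over the whole genome, numbered here from the centromeric to the telomeric end. ATAC-seq uses the Tn5 transposase to place sequencing adapters into open chromatin. Each library was made from 50000 cells of E12.5 embryos of the B6CBAF1 background. The tissues were the distal part of the forelimb (DFL), its proximal part (PFL) and the forebrain (FB). Every tissue was taken from wild type (wt) and from mutants carrying allele 542, which gave 6 groups of 2 libraries. Allele 542 is homozygous for a copy of the II1 enhancer placed with an HBB promoter and a LacZ reporter in T-DOM, the domain on the other side of the cluster, and still carries II1 at its own site in C-DOM. The reads of wt were mapped to mm10 and those of 542 to a genome with the insertion, so that genotype and mapping genome cannot be told apart. A 13th library, an earlier wt DFL sample processed anew, belongs to no group and is given only where it is named.

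The posterior Hoxd genes, of which Hoxd13 is the most centromeric, are transcribed in digit-forming cells of the distal limb under the control of many enhancers spread over C-DOM, often called an archipelago of regulatory islands. HOXA13 and HOXD13, the homeodomain proteins of the distal limb known together as HOX13, bind many of these islands. Lnpk, which encodes a protein of the endoplasmic reticulum, is a bystander gene within the domain and is widely transcribed, and Evx2, a homeobox gene, lies between Lnpk and Hoxd13. In proximal limb cells Hoxd genes are instead controlled from T-DOM, and forebrain cells lack HoxD activity, which makes PFL and FB the tissues against which DFL is read.

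Sequences are shown for the regions on which the tissue comparisons turn: II1, the regions with the strongest difference in each direction, and the bases next to the start of Lnpk. Each window is read 5′ to 3′ from the GRCm38 reference and runs over 300 bases centred on the strongest summit of the named tissue, with the 21 bases at the summit in capitals. They lie on the plus strand at chr2:74075655-74075954 for II1, chr2:74272622-74272921 for region 58 (called in DFL alone), chr2:74354719-74355018 for region 68 (called in PFL alone), chr2:74380962-74381261 for region 70 (called in limb alone) and chr2:74426808-74427107 for region 78 (the strongest of the forebrain after the Lnpk start). For Lnpk, the 250 bases before the annotated end of the gene on its 5′ side, 74579435, were read on the minus strand (chr2:74579436-74579685), the strand of the gene, with the last 20 bases in capitals. The strongest summit over the Lnpk start, at 74578969 in region 93, lay 21 bp from another annotated start of Lnpk. The printed bases do not cover that summit.
II1: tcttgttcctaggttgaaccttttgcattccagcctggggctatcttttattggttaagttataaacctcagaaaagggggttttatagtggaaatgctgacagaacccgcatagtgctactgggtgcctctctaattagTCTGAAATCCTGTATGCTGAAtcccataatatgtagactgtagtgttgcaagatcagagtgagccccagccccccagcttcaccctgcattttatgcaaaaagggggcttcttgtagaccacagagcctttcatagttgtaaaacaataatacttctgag
region 58: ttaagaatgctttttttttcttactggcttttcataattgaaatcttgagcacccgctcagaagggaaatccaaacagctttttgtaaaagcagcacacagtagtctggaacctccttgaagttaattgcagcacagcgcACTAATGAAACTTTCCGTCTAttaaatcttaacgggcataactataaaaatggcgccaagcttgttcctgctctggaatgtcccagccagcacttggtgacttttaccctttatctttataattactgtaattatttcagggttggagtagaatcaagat
region 68: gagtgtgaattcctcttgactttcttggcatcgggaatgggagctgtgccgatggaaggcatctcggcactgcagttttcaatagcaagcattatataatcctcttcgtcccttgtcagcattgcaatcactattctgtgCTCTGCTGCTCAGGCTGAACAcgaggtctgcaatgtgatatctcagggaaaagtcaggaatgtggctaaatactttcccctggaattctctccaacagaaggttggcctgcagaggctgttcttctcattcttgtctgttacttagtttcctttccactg
region 70: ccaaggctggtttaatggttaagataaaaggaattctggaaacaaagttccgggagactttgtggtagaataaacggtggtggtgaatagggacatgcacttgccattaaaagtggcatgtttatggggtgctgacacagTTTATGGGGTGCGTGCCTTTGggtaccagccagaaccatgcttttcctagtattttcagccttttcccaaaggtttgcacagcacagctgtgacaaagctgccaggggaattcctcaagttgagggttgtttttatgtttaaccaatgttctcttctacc
region 78: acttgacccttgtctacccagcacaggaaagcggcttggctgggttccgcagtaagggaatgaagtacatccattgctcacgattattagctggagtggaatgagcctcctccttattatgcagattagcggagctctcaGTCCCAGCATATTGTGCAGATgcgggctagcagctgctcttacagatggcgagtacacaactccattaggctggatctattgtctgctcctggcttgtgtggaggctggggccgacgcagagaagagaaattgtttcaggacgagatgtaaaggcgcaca
Lnpk upstream: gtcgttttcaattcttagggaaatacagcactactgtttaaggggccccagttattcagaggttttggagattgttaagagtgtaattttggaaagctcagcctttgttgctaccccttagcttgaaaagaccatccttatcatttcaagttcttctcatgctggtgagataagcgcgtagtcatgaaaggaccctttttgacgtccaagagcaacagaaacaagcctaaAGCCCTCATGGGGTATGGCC

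Accessibility is given as a percentile, the rank of a region's fold (tags under its strongest summit over the local background of the same library) among all regions listed for that library, from 0 to 100. A value of 0 stands for a region that was not called, which is not the same as closed chromatin, since the lists hold only regions past the caller's threshold. Percentiles of a tissue are given in the order wt replicate 1, wt replicate 2, 542 replicate 1 and 542 replicate 2. Libraries held an estimated 37.5 to 70.7 M (mega) tags and 85070 to 118297 regions, and the earlier wt DFL library 78 M and 131691. Tissues were checked by the starts of marker genes. The start of Hoxa13 lay at percentiles of 82.7 to 87.3 in DFL and 49.2 to 73.7 in PFL and was called in 1 of 4 FB libraries. The start of Twist1, a gene of limb mesenchyme, lay at 87.2 to 89.6 in DFL and 85.4 to 88.6 in PFL against 45.5 to 56.8 in FB. The start of Hoxd13 lay at 81.7 to 87.2 in DFL, 17.8 to 60.6 in PFL and 23.7 to 42.7 in FB. Tbx5 reached 39.9 in DFL and 21.2 in PFL and was called in no FB library. Tfap2b was called in every DFL and no PFL library, at 9.5 at most, and in FB at up to 3.19. Prrx1, Msx1 and Sall3 did not set DFL above FB. Prrx1 lay at 59.7 to 64.2 in DFL and 65.8 to 73.6 in FB, Msx1 at 68.6 to 78.1 and 71.1 to 82.5, and Sall3 at 66 to 77.7 and 71.2 to 80.4. In PFL Sall3 lay at 35 to 56.4, below every DFL value. The starts of the proximal limb list did not set PFL apart. Meis1 lay at 70.4 to 84.8 in DFL, 82.1 to 85.8 in PFL and 80.3 to 84.8 in FB. In the same order Scx lay at 49.1 to 76.8, 56.4 to 63.4 and 28.5 to 61.4. Shox2 lay at 0.119 to 9.43, 0.231 to 3.34 and 0.526 to 17.9. The start of Myog, a gene of differentiating muscle, was at 65.4 to 78.8 in PFL against 0 to 28 in DFL, and the 3 muscle genes had 25 to 35 regions within 50 kb in PFL against 16 to 25 in DFL. The other 2 muscle starts did not go that way. Myod1 lay at 50.2 to 66.3 in DFL and 21.6 to 60.1 in PFL, and Myf5 at 57.8, 66.1, 0 and 0 in DFL and 17.1 to 40.2 in PFL. The part of muscle cells in the results below was not tested. In such bulk samples fewer cells of a type and less accessibility per cell cannot be told apart. By the study's methods each library came from its own pool of several embryos, so p-values rest on the spread between pools. Where a group had no call, all its values were 0 by the caller's threshold. That lack of spread was not measured between pools, and it enters the p-values of regions called in few groups.

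Of the 99 regions, 87 were called in at least 1 of the 12 grouped libraries and 12 only in the earlier wt DFL library. In 69 the call came from at least 2 of the 12 libraries, and 18 were called in 1. There were 90 that lay between genes, 3 in Lnpk and the other 6 in the non-coding genes Gm28640, Gm13667 and 4930441J16Rik. Only region 93 reached a protein-coding start, that of Lnpk. Width ran from 200 to 2036 bp with a median of 601 bp, and the median gap to the next region was 3858 bp. The longest gap, 39276 bp, lay on the telomeric side of region 66 beyond 4930441J16Rik, and the next, 38204 bp, between the Lnpk start and region 94. Any DFL library called 64 regions, any PFL library 45 and any FB library 39. The heat map of the 69 regions shows columns filled in every library beside columns filled in 1 tissue.

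**Figure D1:**
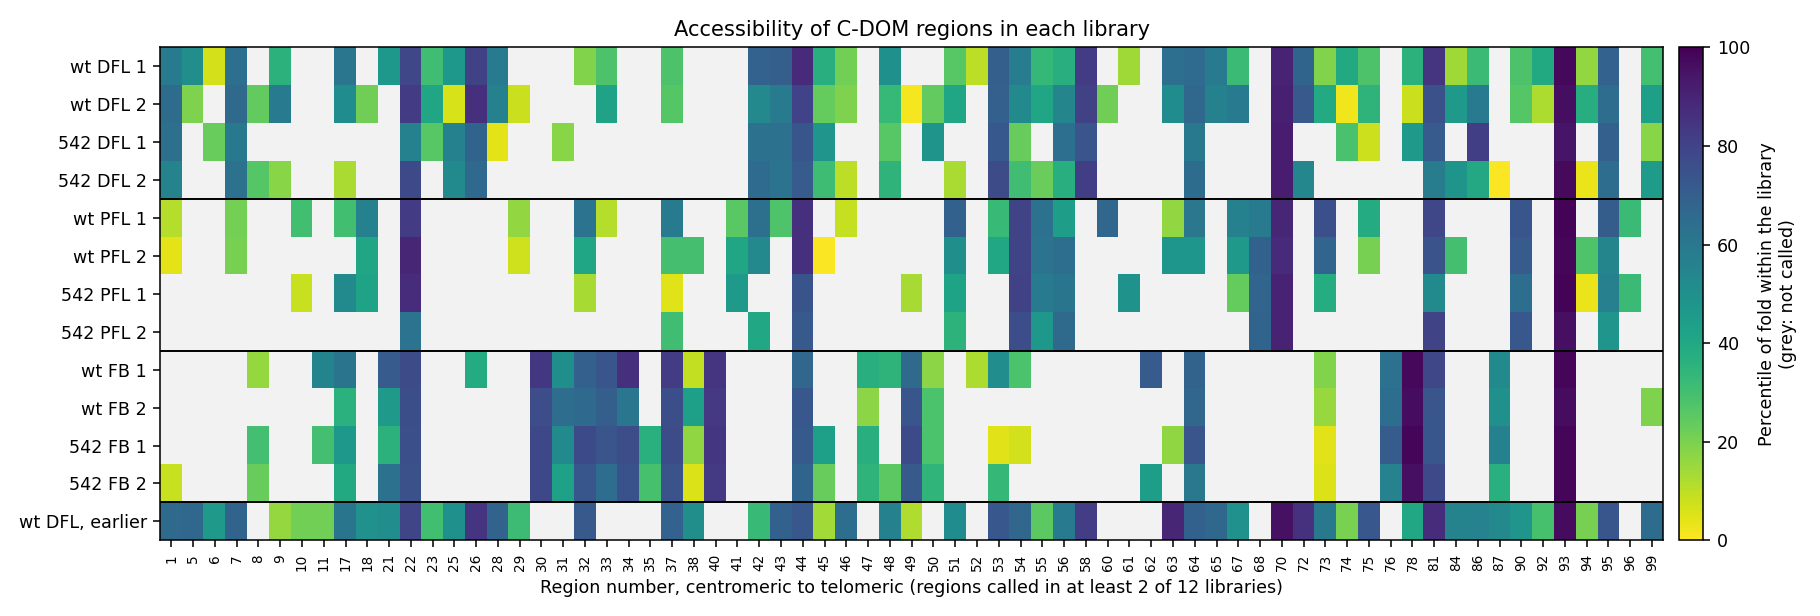
Percentile of fold within each library (colour, 0 to 100) for the 69 C-DOM regions called in at least 2 of the 12 grouped libraries. Rows are the 12 libraries by tissue and the earlier wt DFL library, columns are region numbers from centromeric to telomeric, and grey marks a region that was not called. Regions 22, 44, 81 and 93 are filled in all 12 rows, region 70 in the 8 limb rows and region 40 in the 4 FB rows.

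There were 4 regions called in all 12 libraries, 5.80% of the 69, against a background of 15.5% of the 174473 regions of the genome called in at least 2 libraries. The highest was region 93 at chr2:74578192-74579551, which covers the start of Lnpk and that of the antisense gene 4930445N08Rik. Its percentile was 98, 96.2, 94.5 and 97.4 in DFL, 98.9, 98.7, 99 and 95.7 in PFL, with 98.6, 96.8, 98.7 and 98.4 in FB, so that the tissues overlapped throughout. Between DFL and PFL it differed by -1.59 points (SE 0.98, limma adjusted p = 0.349), between limb and FB by -0.81 points (SE 0.85, limma adjusted p = 0.427). Tags under its summit numbered 254, 223, 108 and 157 in DFL. Its window of 300 bases had the highest GC content of all members, 69.7%, against a median of 45.3%. In FB region 78, described below, overlapped it. The 3 members with the smallest mean absolute difference from it over the 12 libraries were regions 22, 44 and 81, at 20.9, 21.7 and 24.5 points, which are also the other 3 called everywhere.

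Region 22 at chr2:74066658-74067180, between genes, stood at 78.8, 82.4, 56 and 77.8 in DFL, 82.5, 89.1, 87.4 and 62.1 in PFL, with 77.2, 75.8, 75.5 and 75.3 in FB. Its limb values spread more widely than its FB values. Region 44 at chr2:74201426-74202304 stood at 87.5, 79.7, 73.4 and 71.3 in DFL, 86.5, 86.4, 74 and 72 in PFL, with 66.9, 73, 71.6 and 67.8 in FB. It was the only one of the 4 past a threshold, in the genotype comparison below and here, where it was higher in limb by 9.03 points (SE 1.91, limma adjusted p = 0.00531). Region 81 at chr2:74450022-74452057, the widest member at 2036 bp, stood at 85, 75, 71.2 and 57.7 in DFL, 78.7, 74.2, 52.2 and 79.5 in PFL, with 78.9, 73.5, 73.4 and 77.8 in FB. In regions 22 and 81 the values of every tissue overlapped those of the others, and in region 44 those of FB overlapped the lower limb values.

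To ask which islands part distal from proximal limb cells, percentiles were compared by limma over all 174473 regions. Of the 69 members, 17 were higher in DFL, or 24.6%, where 10.6% of all regions tested were, and 7 were higher in PFL, or 10.1%, where 9.47% of all regions tested were. The median difference, DFL minus PFL, was 2.86 points over the members and 0 over all regions. A region called in 1 tissue or group alone entered the fit through it, so that its p-value restates in part how it was selected. Without the filter of 2 calls 17 of 87 members were higher in DFL (19.5%, background 6.34%). Each of the 87 still entered through at least 1 call, so that this setting does not remove the selection. With lists cut to the 80000 strongest regions of each library 11 of 58 members were higher in DFL (19.0%, background 10.1%), and with a −log10 q of at least 10 there were 10 of 40 (25%, background 9.63%). By calls alone, 6 were called in all 4 DFL and no PFL library, or 8.70%, where 2.95% of all regions were. Regions 25, 58 and 86 were called in all 4 DFL libraries and in no PFL or FB library, 4.35% where 2.0% were.

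The largest difference was at region 58, an intergenic region at chr2:74271737-74273079 on the centromeric side of the non-coding gene 4930441J16Rik. It stood at 82.3, 80.8, 73.7 and 81.4 in the DFL libraries and was called in no PFL or FB library (difference 79.6 points, SE 3.12, limma adjusted p = 9.62e-06). The groups did not overlap, and the earlier wt DFL library gave 82. Region 58 entered the fit through DFL calls alone, so that its p-value restates in part how it was selected. Next came region 26 at chr2:74075128-74076362, which covers II1 (chr2:74075307-74075849, 543 bp, located by its amplification primers). It stood at 80.2, 86.1, 67.8 and 65.9 in DFL, at 0 in all 4 PFL libraries and at 38.5, 0, 0 and 0 in FB (difference 75 points, SE 7.58, limma adjusted p = 4.29e-04). Both wt DFL values lay above both 542 DFL values, with tags of 86, 120, 40 and 47 under the summit, or 1.58, 2.72, 0.967 and 1.17 per M tags. For region 58 these were 1.34, 1.45, 0.87 and 1.25 and for region 70, where 542 minus wt was 1.18 points (limma adjusted p = 0.76), 1.65, 1.86, 1.62 and 2.02. In 542 a read pair wholly inside II1 has 2 possible origins and can be lost to the filter on mapping quality, and its part in the lower 542 values was not tested. Over all tissues the genotype difference at region 26 was -11.8 points (SE 6.19, limma adjusted p = 0.338). By mean absolute difference over the 12 libraries the members most like region 26 were regions 58, 43 and 1, at 5.62, 9.42 and 10.0 points.

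Region 1 at chr2:73952306-73953566 stood at 58.9, 64.7, 62.9 and 55.3 in DFL, 11.2, 4.01, 0 and 0 in PFL, with 0, 0, 0 and 8.35 in FB (difference 56.6 points, SE 3.71, limma adjusted p = 4.29e-05). Region 43 at chr2:74190459-74191226 stood at 69.7, 59.2, 62.3 and 61.9 in DFL and 27.7, 0, 0 and 0 in PFL (difference 56.4 points, SE 5.94, limma adjusted p = 5.27e-04). Region 7 at chr2:73977367-73978530 stood at 63.6, 65.4, 59.5 and 62.8 in DFL and 20.9, 20.5, 0 and 0 in PFL (difference 52.5 points, SE 2.79, limma adjusted p = 1.73e-05). In these 3, PFL calls were confined to wt libraries and every DFL value lay above every PFL value. Region 53 at chr2:74239371-74240121 had 69.8, 69.4, 72.5 and 76.9 in DFL, 32, 40.3, 0 and 0 in PFL, with 51.1, 0, 4.36 and 33.3 in FB (difference 54.1 points, SE 11.1, limma adjusted p = 0.0119), so that FB calls accompanied the DFL calls. Region 86 at chr2:74486098-74486821 had 31.9, 59.2, 81.4 and 39.5 in DFL and no call in PFL or FB (difference 53 points, SE 9.41, limma adjusted p = 0.00613). It lost the threshold with lists of the 80000 strongest regions (limma adjusted p = 0.0843), and with a −log10 q of 10 or more its difference was 20.5 points (limma adjusted p = 0.345). Region 72 at chr2:74392643-74393801 had 67.7, 72.3, 0 and 53.9 in DFL and no call elsewhere (difference 48.5 points, SE 10.1, limma adjusted p = 0.0127), and 1 of its 4 DFL libraries did not call it. Regions 86 and 72 also entered the fit through DFL calls alone.

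The other 9 members higher in DFL differed by 24.4 to 40.4 points. Region 25 at chr2:74074356-74075022, the neighbour of II1, was called in all 4 DFL libraries at 6.07 to 56.2 and nowhere else. Region 23 at chr2:74067305-74067835, beside region 22, was called in 3 DFL libraries at 25.9 to 41.1 and nowhere else. Region 9 at chr2:73983092-73983433 was called in 3 DFL libraries at 17.7 to 58.3 and nowhere else. These 3 were DFL regions of low to middling percentile. Region 45 at chr2:74202840-74203475 was called in all 4 DFL libraries at 23.6 to 48, in 1 PFL library at 0.52 and in both 542 FB libraries at 23.1 to 43.6. Region 48 at chr2:74209161-74209866 was called in all 4 DFL libraries at 25.8 to 50.0 and in 2 FB libraries at 25.3 to 35.2. Region 99 at chr2:74648843-74650147, the last before Evx2, was called in all 4 DFL libraries at 17.8 to 44.8 and in 1 FB library at 19.2. All 3 thus had calls in forebrain. Regions 28, 64 and 65, which also differed by genotype, are given with that comparison.

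Among the 7 members higher in PFL, region 68 at chr2:74354564-74355163 stood at 58.2, 68.8, 67.6 and 67.9 in PFL and was called in no DFL or FB library, nor in the earlier wt DFL library (difference -65.6 points, SE 3.24, limma adjusted p = 1.29e-05). It was the only member called in all 4 PFL and no DFL library, 1.45% of the 69 where the background was 2.15%, or 1.78% without FB calls. Region 68 entered the fit through PFL calls alone, so that its p-value restates in part how it was selected. Region 90 at chr2:74508019-74508893, on the 3′ side of Lnpk, had 73.3, 71.2, 64 and 72.7 in PFL and 27.8, 26.4, 0 and 0 in DFL (difference -56.8 points, SE 3.26, limma adjusted p = 2.35e-05). Region 54 at chr2:74243525-74244209 had 79.4, 79.6, 80.3 and 75.9 in PFL and 58, 52.5, 23.3 and 30.6 in DFL (difference -37.7 points, SE 6.20, limma adjusted p = 0.00431). In both regions every PFL value lay above every DFL value. Region 55 at chr2:74264902-74266322 had 62.7, 61.8, 59 and 46.6 in PFL and 33.3, 40.8, 0 and 23 in DFL (difference -33.2 points, SE 5.62, limma adjusted p = 0.00487), and with windows of 500 bp on summits its difference of -15.1 points lost the threshold. Region 51 at chr2:74216908-74217979 had 69.1, 50.3, 42 and 35.5 in PFL and 25.8, 41.1, 0 and 12.51 in DFL (difference -29.4 points, SE 5.68, limma adjusted p = 0.00902), with overlap. Region 73 at chr2:74404519-74405202 had 75.4, 67.4, 37.9 and 0 in PFL, 18.9, 38.9, 0 and 0 in DFL and 18.9, 15.5, 4.36 and 5.30 in FB (difference -30.7 points, SE 8.34, limma adjusted p = 0.0371). Region 32 at chr2:74123314-74124109 had 62.1, 41.3, 13 and 0 in PFL, 18.9, 0, 0 and 0 in DFL and 69.4, 65.7, 77.4 and 73.4 in FB (difference -24.4 points, SE 6.35, limma adjusted p = 0.0316). The last 2 calls were weak. Region 73 lost the threshold when any of 9 of 12 libraries was left out (limma adjusted p = 0.0672 to 0.107), all but replicates 1 and 2 of 542 PFL and wt DFL replicate 2, and region 32 with 9 of 12 (limma adjusted p = 0.0568 to 0.0871), all but wt DFL replicate 1, wt PFL replicate 2 and 542 PFL replicate 2.

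**Figure D2:**
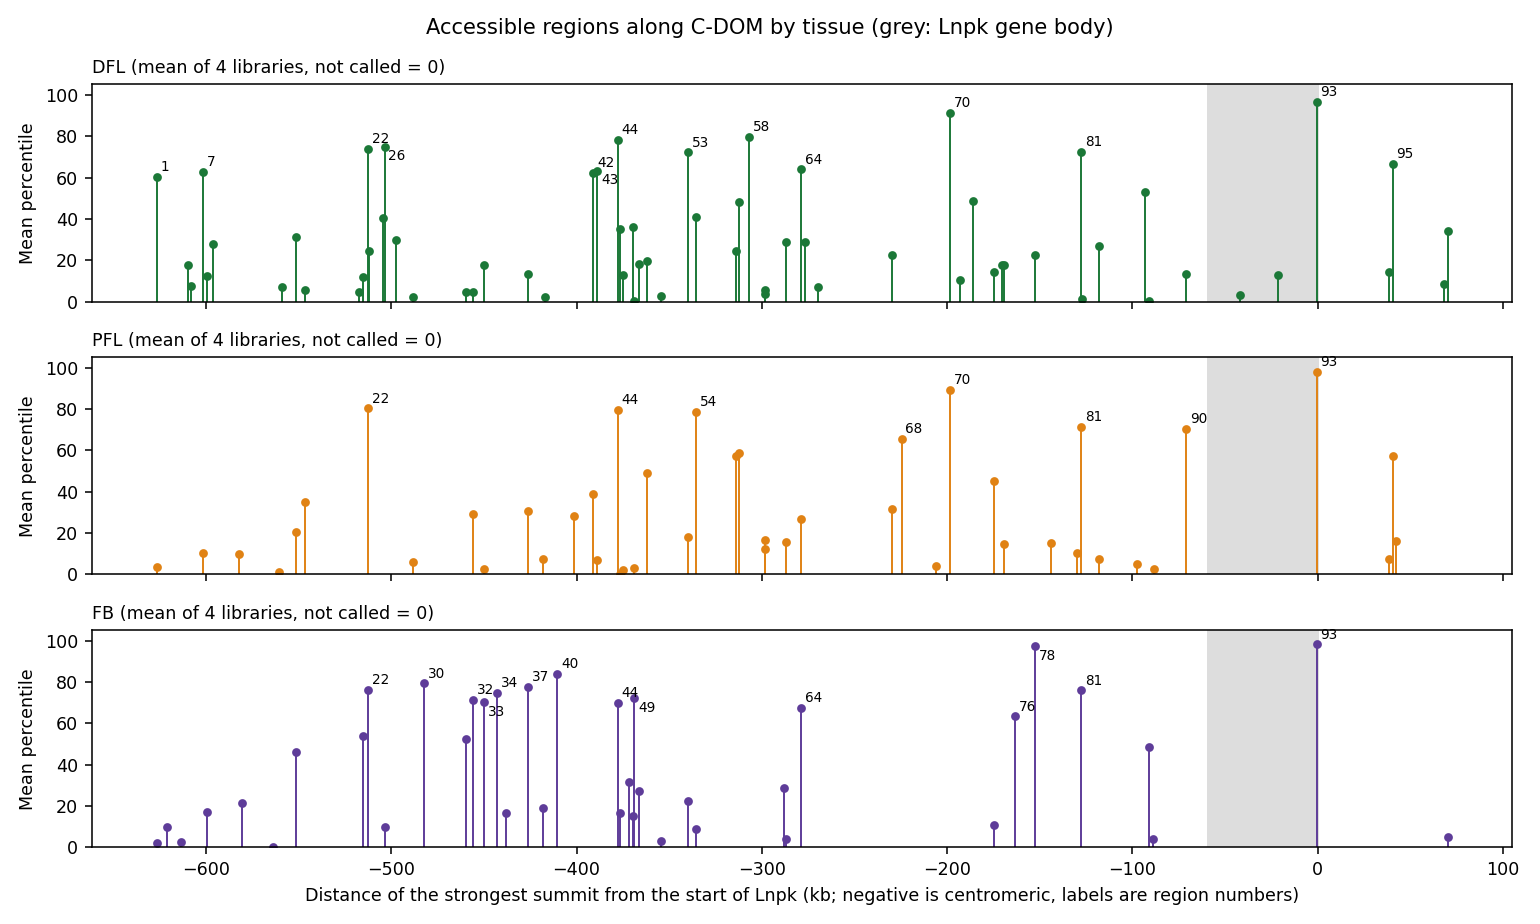
Mean percentile over the 4 libraries of each tissue (y axis, not called counted as 0) against the distance of a region's strongest summit from the start of Lnpk in kb (x axis, negative is centromeric), with numbers at regions of at least 60 on the y axis and the Lnpk gene body in grey. Regions 22, 44, 81 and 93 recur in all 3 panels, regions 58 and 26 stand only in the DFL panel at that height, region 68 only in the PFL panel, and regions 30, 33, 34, 37 and 40 only in the FB panel.

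Between limb and forebrain, 23 of the 69 members were higher in limb, or 33.3%, where 25.7% of all regions tested were, and 15 were higher in FB, or 21.7%, where 25.1% were. The median difference, limb minus FB, was 8.75 points over the members and 2.65 over all regions. Limb is here the mean of DFL and PFL, so a member called in 1 limb tissue alone can count as higher in limb. Of those higher in limb, regions 9, 25, 26, 28, 58, 65 and 86 had no PFL call and region 68 no DFL call. By calls alone, 3 were in all 8 limb and no FB library (4.35%, background 5.49%) and 5 in all 4 FB and no limb library (7.25%, background 9.27%). A member called in limb alone or in FB alone entered the fit through those calls, so that its p-value restates in part how it was selected.

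The largest limb difference was at region 70, an intergenic region at chr2:74380576-74381478. Its percentile was 89.9, 91.1, 92.1 and 92.1 in DFL and 89.4, 87.5, 90.6 and 90.2 in PFL, and no FB library called it (difference 90.4 points, SE 1.81, limma adjusted p = 1.20e-07). After the Lnpk start it was the highest member in both limb tissues, and its DFL and PFL values were within 1.87 points of each other on average (SE 2.09, limma adjusted p = 0.683). Region 95 at chr2:74619141-74620686, on the telomeric side of Lnpk, stood at 68.6, 64.3, 69.5 and 64.1 in DFL and 70.5, 54.4, 56.5 and 48 in PFL and was not called in FB (difference 62 points, SE 3.88, limma adjusted p = 4.56e-06). Region 56 at chr2:74266427-74267394 stood at 37.3, 54.6, 63.5 and 37.2 in DFL and 44, 63.9, 61 and 65.3 in PFL, also without a call in FB (difference 53.3 points, SE 6.36, limma adjusted p = 2.40e-04). These 3 were the members called in all limb and no FB libraries. Region 42 at chr2:74187968-74189018 was called in 7 of 8 limb libraries at 40.1 to 68.4 and not in FB (difference 50.6 points, SE 7.35, limma adjusted p = 7.30e-04). Regions 54, 58, 90 and 55, described above, completed the 8 with the largest limb differences, of 39.8 to 51.2 points. The other 15 members higher in limb were regions 1, 7, 9, 25, 26, 28, 43, 44, 51, 63, 65, 67, 68, 75 and 86, with differences of 9.03 to 36.6 points. Region 86 lost the limb call with any FB library left out (4 of 12 libraries, limma adjusted p = 0.0785 to 0.081). When only regions with a −log10 q of 10 or more were kept, regions 42, 55 and 56 lost the limb call (limma adjusted p = 0.0745, 0.0665 and 0.0741). So did regions 44, 67 and 86, at 8.28, 3.75 and 10.2 points (limma adjusted p = 0.0863, 0.383 and 0.402).

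In forebrain the strongest region after the Lnpk start was region 78 at chr2:74426476-74427477, between 4930441J16Rik and Lnpk. It stood at 97.7, 96.5, 98.7 and 95.8 in FB, 35.7, 8.03, 45.8 and 0 in DFL and 0 in all 4 PFL libraries (difference -86 points, SE 8.75, limma adjusted p = 9.53e-05). Its folds of 17.9 to 20.9 in FB approached those of the Lnpk start, 18.6 to 21.2. Region 40 at chr2:74168686-74169487 stood at 85.1, 83.5, 84.4 and 83 in FB and was called in no limb library (difference -84 points, SE 2.48, limma adjusted p = 1.42e-07). Region 30 at chr2:74096494-74097431 stood at 83.7, 76.4, 78.5 and 78.4 in FB and region 34 at chr2:74135798-74137042, over an exon of the non-coding gene Gm13667, at 86.4, 60.6, 76.2 and 74.8, again without a limb call. Region 76 at chr2:74415946-74416511 stood at 62.6, 64, 70.8 and 55.6 in FB and in no limb library. The 4 differences were of 63.3 to 84.0 points (limma adjusted p = 1.42e-07 to 5.23e-06). All 4 regions entered the fit through FB calls alone, so that these p-values restate in part how the regions were selected. Together with region 47 at chr2:74207514-74207813, at 37.4, 17.4, 36.8 and 34.8, these were the 5 members called in all 4 FB and no limb library.

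Region 49 at chr2:74210054-74210783 had 65.6, 73.4, 77.5 and 72.1 in FB and single calls of 1.48 in wt DFL replicate 2 and 13 in 542 PFL replicate 1 (difference -70.3 points, SE 3.46, limma adjusted p = 1.04e-06). Region 33 at chr2:74128803-74130764, over an exon of the non-coding gene Gm28640, had 73.4, 69.6, 73.8 and 64.3 in FB and 3 calls in wt limb libraries at 11.2 to 42.4 (difference -60.1 points, SE 4.11, limma adjusted p = 8.02e-06). Region 37 at chr2:74152342-74153876 had 82.4, 75.8, 77.2 and 74.6 in FB and 6 limb calls at 4.83 to 58.2 (difference -55.3 points, SE 6.57, limma adjusted p = 2.35e-04). Limb calls of these regions were weaker than every FB call. Region 31 at chr2:74119200-74120383 was called in all 4 FB libraries at 42.8 to 64.4 and in 1 DFL library at 17.8. Region 32 was higher in FB by 54.5 points, and region 87 at chr2:74487985-74488763, called in all 4 FB libraries at 36.3 to 56.1, in 1 DFL library at 0.67. Region 21 at chr2:74063799-74064240 was called in all 4 FB libraries at 35.7 to 71.1 and in wt DFL replicate 1 at 46.8. The remaining 2 of the 15 were regions 35 and 64, at -16.4 and -21.8 points, whose percentiles are given with the genotype comparison. Region 35 had no wt FB call. In region 64 the DFL values overlapped those of FB, and both 542 PFL libraries were without a call. Along the window, regions 30, 31, 32, 33, 34, 35, 37 and 40 lay in a stretch from 74096494 to 74169487, singled out after its values were seen, of whose 11 members 9 were tested, 8 were higher in FB and none was higher in limb.

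The next question was whether the islands differ between genotypes. Of the 69 members, 8 were higher in wt, or 11.6%, where 5.06% of all regions tested were, and 1 was higher in 542, or 1.45%, where 1.08% were. The lists of 542 limb libraries were shorter, 85070 to 100425 regions against 104657 to 118297 in wt limb, and over all regions the median difference, 542 minus wt, was -2.59 points, against -5.39 over the members. With the 80000 strongest regions of each library, 2 members were higher in wt (3.45%, background 2.47%) and 1 in 542 (1.72%, background 2.01%). The 2 were regions 28 and 65, and the other 6 lost the call with at least 1 library left out. Region 28 kept it in all 12 such fits, at -19.2 to -17.8 points. Its only calls were in DFL, so that leaving out a PFL or FB library removed a 0 and did not test its call. Region 65 was tested in 10, since without either wt DFL library it failed the filter of 2 calls. Its difference stayed at -19.2 points in those 10, so they do not test its call. Without the filter on calls 3 of 87 members were higher in wt (3.45%, background 1.28%) and none in 542 (2 at an unadjusted p under 0.05, background 0.198%).

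Region 28 at chr2:74081404-74082149, on the telomeric side of II1, stood at 58.9, 56.2, 4.17 and 0 in DFL and 0 in every PFL and FB library (542 minus wt -18.5 points over all tissues, SE 2.33, limma adjusted p = 0.0108). Region 65 at chr2:74302440-74303303, in an intron of 4930441J16Rik, stood at 58.9, 56.2, 0 and 0 in DFL and 0 elsewhere. Its only calls among the 12 libraries were those of wt DFL, through which it entered the fit, so its differences are given as a description. In wt DFL both had equal percentiles, since tags under the summit were equal (32 in replicate 1 and 28 in replicate 2). The earlier wt DFL library called both, at 68 and 66.3, on the side of the other wt libraries. The start of Myf5, a muscle gene, moved with both, at 57.8 and 66.1 in wt DFL and 0 in both 542 DFL libraries. The other muscle starts did not, with Myod1 at 65, 64.4, 50.2 and 66.3 and Myog at 0, 3.77, 0 and 28 in DFL. The part of muscle cells was not tested. The DFL excess over PFL differed between genotypes by -55.5 points at region 28 (SE 5.71, limma adjusted p = 0.00958), which entered the fit through DFL alone, and by -57.5 points at region 65. Of the 69 members these 2 were past this threshold in the negative direction, 2.90% against 1.24% of all regions, and 1 in the positive, 1.45% against 2.04%.

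The region past the threshold in the positive direction was region 64 at chr2:74300281-74300964, over an exon of 4930441J16Rik. It stood at 65, 66.4, 59.5 and 64.6 in DFL, 60.2, 47.5, 0 and 0 in PFL, with 68.3, 67.1, 73.6 and 59.8 in FB, so that the missing calls were those of 542 PFL (interaction 50.2 points, SE 8.56, limma adjusted p = 0.0226). When only regions with a −log10 q of 10 or more were kept, this value turned to -1.34, and it lost the threshold with 5 of 12 libraries left out (wt DFL replicates 1 and 2, 542 DFL replicate 2, wt PFL replicate 1 and 542 PFL replicate 2, limma adjusted p = 0.051 to 0.0575). Its genotype difference was -19.5 points (SE 3.49, limma adjusted p = 0.0222), which lost the threshold without wt FB replicate 1 (limma adjusted p = 0.0533). Its excess in DFL over PFL was 37.0 points (limma adjusted p = 7.86e-04). With a −log10 q of 10 or more that excess was 22.2 points and lost the threshold (limma adjusted p = 0.0582).

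The other 5 members higher in wt did not keep the call with each library left out. Region 44, called in all 12 libraries, was lower in 542 by 8.31 points (limma adjusted p = 0.0394) and lost the threshold with 10 of 12 libraries left out (limma adjusted p = 0.0555 to 0.0871), all but wt DFL replicate 2 and wt FB replicate 1. Region 63 at chr2:74292182-74293024 had 63.6, 51.4, 0 and 0 in DFL, 16, 47.5, 0 and 0 in PFL, with 0, 0, 16.8 and 0 in FB, a difference of -27 points (limma adjusted p = 0.0418), lost with 9 of 12 left out (limma adjusted p = 0.0557 to 0.0959), all but wt PFL replicates 1 and 2 and 542 FB replicate 1. Its limb excess over FB was lost with 8 of 12 left out (limma adjusted p = 0.0722 to 0.16), all but wt DFL replicate 2, wt PFL replicates 1 and 2 and 542 FB replicate 1, and turned to -11.6 points with windows of 500 bp on summits. Region 67 at chr2:74349524-74350202 had 31.9, 58.3, 0 and 0 in DFL and 56.1, 46.4, 23.5 and 0 in PFL, a difference of -28.2 points (limma adjusted p = 0.0333), lost with 9 of 12 (limma adjusted p = 0.0565 to 0.0806), all but wt DFL replicates 1 and 2 and 542 PFL replicate 1. Region 73 differed by -31.2 points (limma adjusted p = 0.04), lost with 9 of 12 (limma adjusted p = 0.0698 to 0.0996), all but 542 PFL replicates 1 and 2 and wt DFL replicate 1. Region 75 at chr2:74409215-74410318 had 27.8, 35.1, 7.75 and 0 in DFL and 38.7, 20.5, 0 and 0 in PFL, a difference of -19 points (limma adjusted p = 0.0298), lost with 8 of 12 (limma adjusted p = 0.0528 to 0.0651), all but wt PFL replicates 1 and 2, wt DFL replicate 1 and 542 DFL replicate 1. Higher in 542 was region 35 at chr2:74140883-74141317, in an intron of Gm13667, called only in the 542 FB libraries at 28.9 to 36.7, a difference of 10.9 points. It entered the fit through these libraries alone, and without the filter it was not past the threshold (limma adjusted p = 0.0985).

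**Figure D3:**
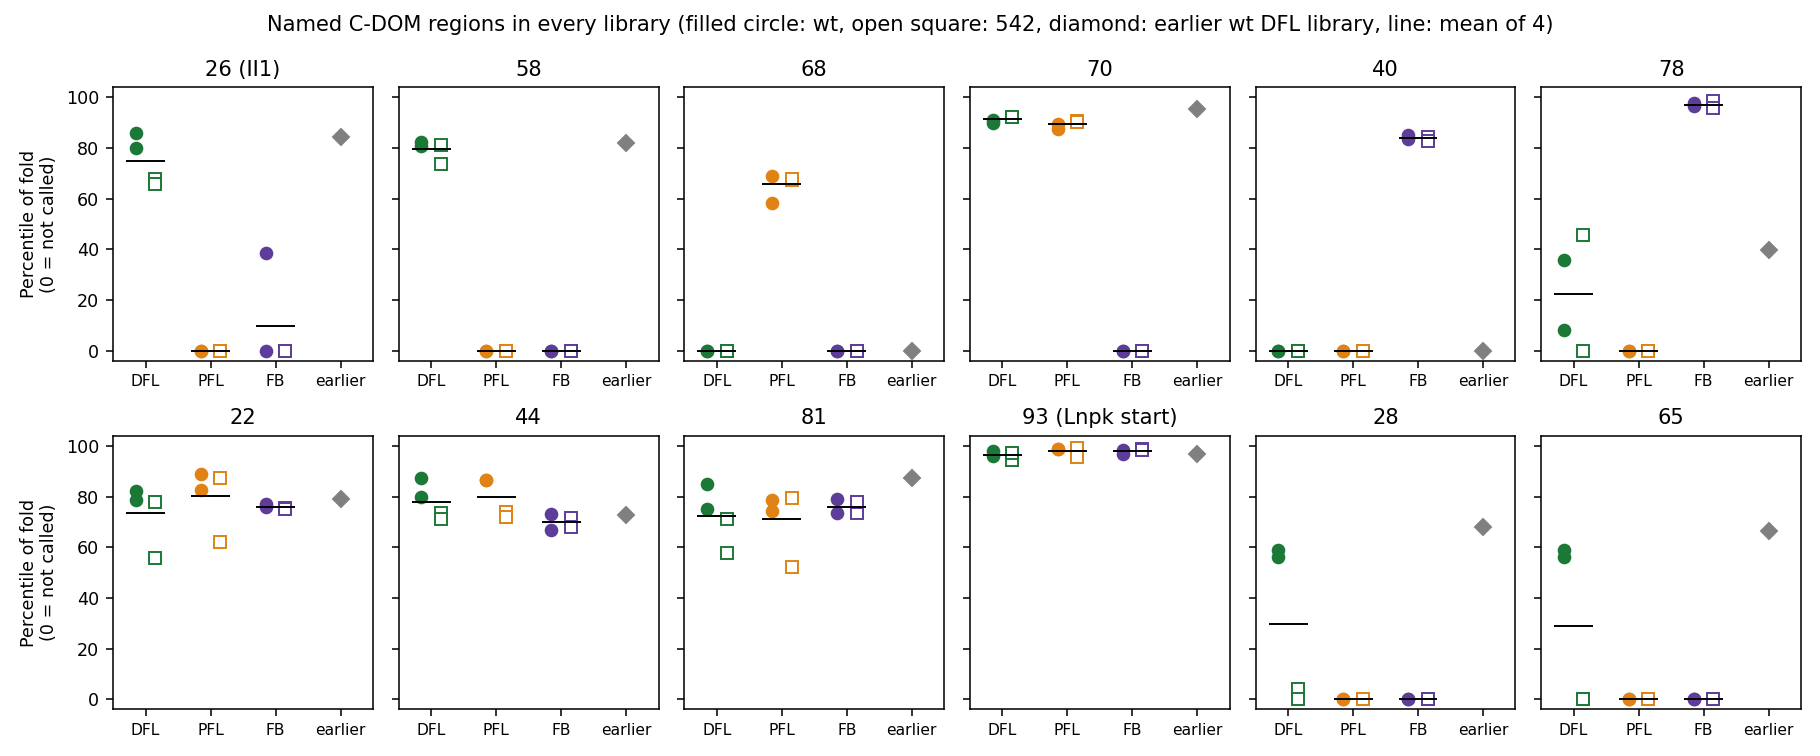
Percentile of fold (y axis, 0 means not called) of 12 named regions in every library. Filled circles are wt and open squares 542 libraries, coloured by tissue, the line is the mean of the 4 libraries of a tissue, and the diamond is the earlier wt DFL library. In regions 28 and 65 the wt DFL circles stand at 56.2 to 58.9 and the 542 DFL squares at 0 to 4.17, while in regions 58, 70, 40, 78 and 93 the circles and squares of the tissue with the highest mean lie side by side.

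Counted by calls, 9 members were found in both wt and neither 542 library of DFL (regions 5, 33, 37, 63, 65, 67, 73, 90 and 92), 13% of the 69 where 5.16% of all regions were, and none in the opposite direction, where 1.66% were. In PFL 7 were found in both wt and neither 542 library (regions 1, 7, 29, 53, 63, 64 and 75), 10.1% where 6.46% were, and none in the opposite direction, where 1.09% were. In FB none was found in both wt libraries alone, where 3.24% were, and regions 35 and 45 in both 542 libraries alone, 2.90% where 1.62% were. Depth moved with these counts in limb, with 44.1 to 54.5 M tags in wt and 37.5 to 41.4 M in 542, and its part was not tested. In FB, wt libraries held 70.7 and 56.6 M and 542 libraries 64.5 and 51.4 M.

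As a single value per library, members called per 10000 listed regions were 4.48, 4.87, 2.89 and 3.27 in DFL, and for PFL they were 3.07, 2.98, 2.64 and 1.65. The FB libraries had 2.73, 2.63, 2.99 and 3.08. The DFL mean exceeded the PFL mean by 1.30 (two-sided exact permutation test over 4 and 4 libraries, p = 0.0857, where the smallest possible is 0.0286). Of the 542 DFL libraries, 1 lay below both wt PFL libraries. The 542 mean differed from the wt mean by -0.708 (two-sided exact permutation test within tissues, p = 0.111). Within tissues, 542 minus wt was -1.60 in DFL, -0.885 in PFL and 0.357 in FB, so that both limb tissues went one way and forebrain the other. When only regions with a −log10 q of 10 or more were kept, the difference between genotypes was -0.523 (exact permutation p = 0.0185) and the FB value turned to -0.115. The earlier wt DFL library had 5.47, above all 12.

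**Figure D4:**
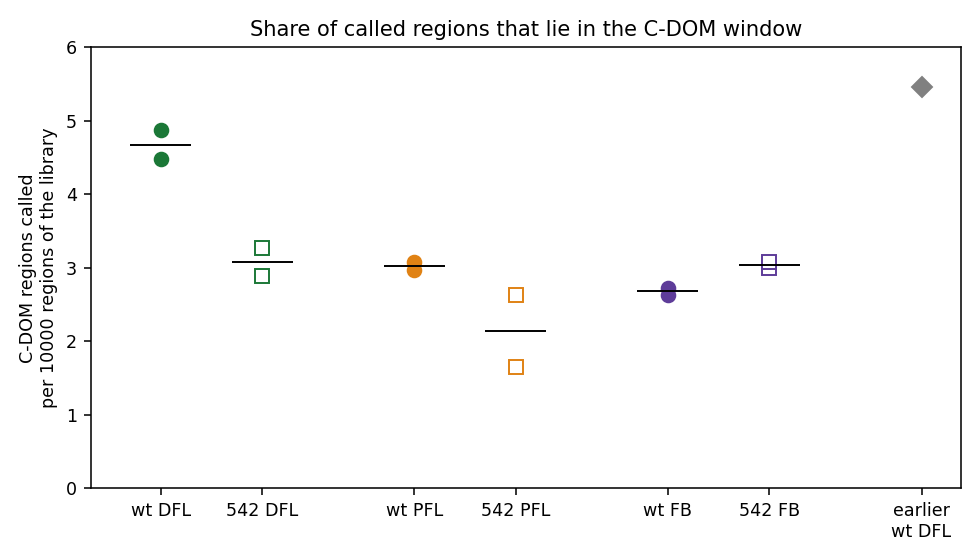
C-DOM regions called per 10000 regions of the library (y axis) in each library by group. Filled circles are wt, open squares 542, lines are means of 2 libraries, and the diamond is the earlier wt DFL library. The wt DFL libraries stand at 4.48 and 4.87, above the other 10 grouped libraries, which lie between 1.65 and 3.27.

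Merged regions can hide separate summits, which were joined within 100 bp. The 99 regions held 196 such summits, 59 regions held more than 1, and 108 summits were called in at least 2 of the 12 libraries. Region 26 had a summit at 74075782 to 74075873, called in all 4 DFL libraries and no other, with a fold of up to 10.6 over the 13 libraries. A second at 74075312 to 74075353, near the other end of II1, was called in 3 DFL libraries and in wt FB replicate 1 with a fold of up to 4.5. The FB call over II1 thus did not share the main DFL summit. Region 81, although called everywhere, held 5 summits. The summit at 74451778 to 74451865 was called in all 12 libraries, while that at 74450588 to 74450650 was called in all 4 FB libraries and no limb library. The summits at 74450221 to 74450315 and 74451191 to 74451314 were also called in all 4 FB libraries, with 1 and 2 limb calls.

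In region 37, the 2 summits at 74152674 to 74152717 and 74153121 to 74153185 were called in all 4 FB libraries and no limb library, and the 6 limb calls fell on the third, at 74153330 to 74153697, with 1 FB call. Region 44 had its limb summit at 74201719 to 74201835, called in 4 DFL, 3 PFL and 2 FB libraries, and its forebrain summit at 74202072 to 74202148, called in 4 FB and 2 libraries of each limb tissue. Region 55 had a summit at 74265135 to 74265280 called in all 4 PFL libraries alone, a second at 74265466 to 74265750 called in 4 PFL and 2 DFL libraries, and the last at 74266023 to 74266119 called in 3 DFL libraries alone. Region 95 had a shared limb summit at 74619732 to 74620019 and another at 74619459 to 74619505 called in the 4 DFL libraries alone. At the Lnpk start, the summits at 74578962 to 74578991 and 74578328 to 74578372 were called in all 12 libraries. Tissues therefore shared a merged region in 37, 44, 55 and 81 while their summits differed in part.

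**Figure D5:**
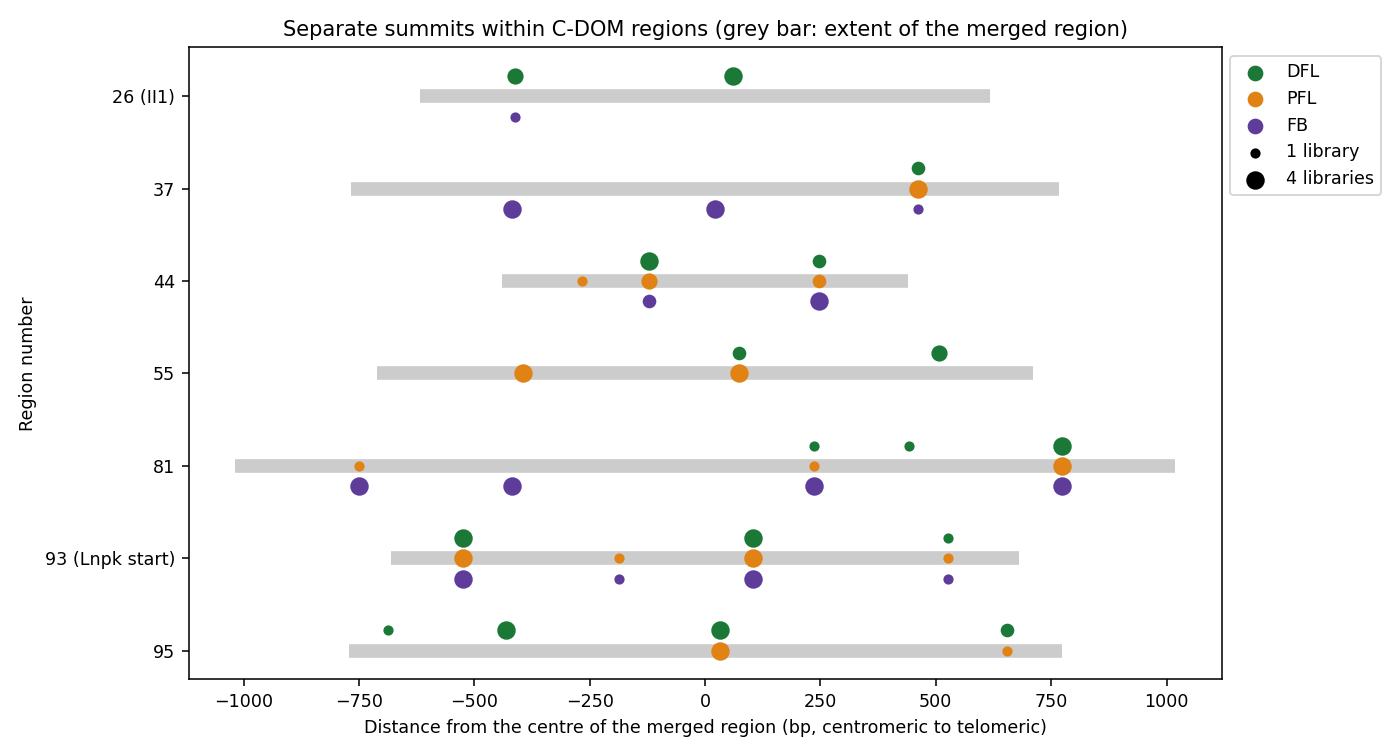
Position of separate summits in bp from the centre of the merged region (x axis) for 7 regions (y axis, grey bars are the extent of the region). Points are coloured by tissue and their area grows with the number of libraries, from 1 to 4, that called the summit. Region 81 has FB points at 4 positions and its large limb points at 1, and region 55 has PFL and DFL points at opposite ends.

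The remaining members called in at least 2 libraries passed no threshold. At the centromeric end, region 5 at chr2:73969295-73970166 was called in both wt DFL libraries at 19.2 to 50.8, region 6 at chr2:73971220-73971664 in 1 DFL library of each genotype at 6.37 to 23.3, and region 8 at chr2:73979762-73980164 in 2 DFL libraries at 24 to 26.3 and 3 FB libraries at 15.6 to 30.1. Region 10 at chr2:73996974-73997371 was called in 2 PFL libraries at 8.40 to 30.4, and region 11 at chr2:73998552-73998881 in 2 FB libraries at 30.1 to 55. Region 17 at chr2:74027513-74028142 was broad in use, with 3 DFL calls at 12.51 to 60.6, 2 PFL calls at 30.4 to 52.2 and 4 FB calls at 36.1 to 61.7. Region 18 at chr2:74032329-74032963 had 3 PFL calls at 41.3 to 56.1 and 1 DFL call at 21.6. Between II1 and region 30, region 29 at chr2:74090767-74091559 had 1 DFL call at 8.03 and 2 wt PFL calls at 7.07 to 16. All of these values lay below the lowest percentile of the Lnpk start.

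In the middle of the window, region 38 at chr2:74161031-74161782 was called in all 4 FB libraries at 5.30 to 43.7 and in wt PFL replicate 2 at 29.7. Region 41 at chr2:74178006-74178523 was called in 3 PFL libraries at 25.8 to 45.7 and in no other. Region 46 at chr2:74204178-74204840 had 3 DFL calls at 10.2 to 21.4 and 1 PFL call at 8.75, and the earlier wt DFL library gave 64. Region 50 at chr2:74213174-74213637 had 4 FB calls at 17.2 to 34.7 and 2 DFL calls at 23.9 to 48.2. Region 52 at chr2:74224786-74225386 had 1 DFL call at 10.1 and 1 FB call at 12.4. Regions 60 at chr2:74280713-74281157 and 61 at chr2:74281277-74281725 each had 1 DFL call, at 21.6 and 14.4, and 1 PFL call, at 66.9 and 49.2. Region 62 at chr2:74291463-74291947 was called in 1 FB library of each genotype at 44.2 to 71.1. Of these 8, regions 38 and 50 were called in every FB library.

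Towards Lnpk, region 74 at chr2:74408681-74409085 had 3 DFL calls at 2.23 to 39.3, and region 84 at chr2:74461335-74461980 3 DFL calls at 14.4 to 48.2 and 1 PFL call at 29.7. Region 92 at chr2:74557647-74558327, in an intron of Lnpk, was called in both wt DFL libraries at 12.2 to 39.3. Beyond the Lnpk start, region 94 at chr2:74617756-74618100 had 3 DFL calls at 2.91 to 37.6 and 2 PFL calls at 2.94 to 27.6, and region 96 at chr2:74621376-74621582 had 2 PFL calls at 31.7 to 32. The gene body of Lnpk held no other region called in at least 2 libraries. Of the 18 members called in 1 of the 12 libraries, 8 were called in DFL, 6 in PFL and 4 in FB, at percentiles of 1.43 to 61.1 with a median of 17.5, and 8 of them were also called in the earlier wt DFL library. The 12 members called in that library alone had percentiles of 2.13 to 48.5.

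What the members share in sequence was described over windows of 300 bases on each strongest summit. On either strand, the letters CAATAAA, a motif of HOX13 proteins, were found in 16 of the 99 windows and in 11 of the 69 (15.9%), against 7.36% of the 174473 windows of all regions tested. CGTAAAA, a further HOX13 motif, was found in none of the 99 and in 0.846% of all. Exact letters can miss sites. In II1 the paper's own motif search reported several HOX13 positions, where the window of region 26 held 1 exact match. Among the 17 members higher in DFL 5 windows held CAATAAA (29.4%), where 15.3% of the 18467 windows higher in DFL over the genome did. Among the 7 members higher in PFL none did, where 6.72% of the genome's did, and among the 15 higher in FB 1 did (6.67%), where 5.36% did. The core of the CTCF motif, CCANNAGNNGGC, was found in 3 of the 99 windows (3.03%) and in 5.58% of all. These 3 were the windows of region 17, called in 9 of the 12 libraries, region 64, called in 10, and region 80, called in 1. In region 80 the match lay in the window but past the telomeric end of the region, 74449566. A match describes letters and was not tested as a binding site.

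The 5 matches to CAATAAA in members higher in DFL and the CTCF core of regions 17 and 64 are printed with 20 bases on either side, in the direction in which the motif reads, with the motif in capitals. They lie at chr2:73977658-73977704 (plus strand) in region 7, chr2:73983231-73983277 (plus strand) in region 9, chr2:74074829-74074875 (minus strand) in region 25, chr2:74075681-74075727 (minus strand) in region 26 and chr2:74190846-74190892 (plus strand) in region 43 and, for the CTCF core, at chr2:74027901-74027952 (plus strand) in region 17 and chr2:74300428-74300479 (plus strand) in region 64.
HOX13 motif in region 7: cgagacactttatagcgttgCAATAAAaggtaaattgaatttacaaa
HOX13 motif in region 9: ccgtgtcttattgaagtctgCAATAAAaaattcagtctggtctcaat
HOX13 motif in region 25: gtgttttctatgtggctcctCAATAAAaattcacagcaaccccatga
HOX13 motif in region 26: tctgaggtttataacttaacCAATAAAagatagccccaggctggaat
HOX13 motif in region 43: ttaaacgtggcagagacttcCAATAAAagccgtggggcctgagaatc
CTCF core in region 17: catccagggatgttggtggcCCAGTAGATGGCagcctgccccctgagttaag
CTCF core in region 64: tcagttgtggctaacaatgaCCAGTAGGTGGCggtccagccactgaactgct

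The gene starts beside the window set these values in context, each by the strongest region within 500 bp of a protein-coding start. On the centromeric side, the start of Atf2, a widely transcribed gene, stood at 93.6, 95.7, 93.7 and 95 in DFL. Its neighbour Atp5g3 stood at 95.7, 97.2, 94.5 and 96.5. On the telomeric side Mtx2, likewise widely transcribed, stood at 95.9, 92.8, 93.5 and 91.4. The values of the Lnpk start overlapped those of these genes. Hoxd13 stood at 87.2, 84.7, 85.1 and 81.7 in DFL, 47.5, 60.6, 50.3 and 17.8 in PFL, with 42.7, 36.1, 23.7 and 37.9 in FB, higher in DFL than in PFL by 40.6 points (SE 7.35, limma adjusted p = 0.00668). Hoxd12 was higher by 16.4 points (SE 4.60, limma adjusted p = 0.0412). Of the other starts on the list, Chn1, Hoxd11, Hoxd10, Hoxd9, Hoxd8, Hoxd4, Hoxd3 and Hoxd1 did not pass the threshold between DFL and PFL, and that of Evx2 was called in 1 library alone and not tested.

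The earlier wt DFL library called 72 of the 99 members. It gave region 26 at 84.4, region 58 at 82 and region 70 at 95.5, close to the other wt DFL libraries. It also called members that these had at low values or not at all. Region 32 stood at 72.2 against 18.9 and 0 in wt DFL replicates 1 and 2, region 87 at 52.7 against 0 and 0, and region 38 at 50.7 against 0 and 0. Regions 32, 87 and 38 were called in every FB library. On the other hand it called none of regions 30, 34, 40, 76 and 47, the members called in all FB and no limb libraries. Region 63 stood at 89.4 against 63.6 and 51.4, and region 75 at 72.7 against 27.8 and 35.1. It was the deepest library, and the part of its depth in these values was not tested.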

How the data were processed

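ATAC-seq accessibility was taken from the deposited lists of accessible regions, 1 list per library. The authors trimmed reads with Cutadapt, mapped them with bowtie2, removed pairs under a mapping quality of 30, discordant pairs and mitochondrial reads, removed duplicates, converted the reads with bedtools and called regions with MACS2 in each library separately, without a control. The deposited fold (a ratio of the tag pileup at a summit to the local background) was ranked within each library to give a percentile. The deposited −log10 q-value and −log10 p-value were used for an alternative threshold and for the tag count under a summit, and the deposited score was not used. Regions of the 13 libraries overlapping by 1 bp or more were merged, and chromosome 2 from 75000000 on was left out. Percentiles (0 where not called) were fitted with limma 3.58.1 (R 4.3.3, with trend and robust) over the 174473 regions called in at least 2 of 12 libraries, 1 mean per group, with Benjamini-Hochberg adjustment at 0.05. Shares were compared by exact permutation tests (scipy 1.17.1). The fit was tested on simulated data. Tags were recovered for 94.7 to 99.0% of summits, and intervals for tags were not given. Meis2, a marker of proximal limb, was not analysed here. The list of forebrain markers is not reported here.

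Named were the Lnpk start, II1, the 3 regions of highest mean percentile per tissue and up to 8 regions per direction of each comparison by size of difference, with every region called in at least 2 libraries described. The members, lists and tests were chosen with earlier results of these data known. Samples were grouped by the labels, and equal replicate numbers did not pair samples (correlations of deviations between groups -0.0109 to 0.00905). Alternatives were lists of equal length (80000), a −log10 q of at least 10, ranks by −log10 q, no filter, windows of 500 bp on summits, the earlier library added, a replicate block, a fit without trend and robust, Fisher's exact test on calls and each library left out.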

Additional observations from a re-analysis of the deposited data

Results flagged for a closer look

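In 3 regions the difference between DFL and PFL was not the same in both genotypes by the interaction term of the limma fit, at -55.5 points in region 28 (limma adjusted p = 0.00958), -57.5 points in region 65 (which entered the fit through its 2 wt DFL calls alone) and 50.2 points in region 64 (limma adjusted p = 0.0226). In regions 28 and 65 the values behind it were those of wt DFL, and in region 64 the 542 PFL libraries without a call. Outside the grouped libraries, 12 members were called in the earlier wt DFL library alone. The difference in members per 10000 regions, 542 minus wt, went down in both limb tissues and up in FB, by -1.95 for DFL against FB and -1.24 for PFL against FB, and this difference was not tested. With a −log10 q of at least 10 the FB value itself was -0.115, on the side of the limb.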

How the results depend on the processing

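Members higher in DFL numbered 17 of 69 (24.6%, background 10.6%). There were 11 of 58 with lists of equal length (19.0%, background 10.1%) and 10 of 40 with a −log10 q of at least 10 (25%, background 9.63%). By Fisher's exact test there were 0 (6 at an unadjusted p under 0.05). No region of the genome passed that test between DFL and PFL (background 0%), so its 0 does not tell members from other regions. Higher in PFL, Fisher's exact test called 0 (1 unadjusted). Higher in limb were 15 of 40 with a −log10 q of at least 10 (37.5%, background 22.2%) and 3 by Fisher's exact test (4.35%, background 5.49%). Higher in FB were 5 by Fisher's exact test (7.25%, background 9.27%). Higher in 542 were 0 without the filter, with a −log10 q of at least 10 and by Fisher's exact test (2, 0 and 0 unadjusted). The backgrounds were 0.198%, 1.25% and 0%. Higher in wt were 3 with the replicate block (4.35%, background 3.21%) and 2 with lists of equal length (3.45%, background 2.47%). There were 3 without the filter (3.45%, background 1.28%) and 5 with the earlier library added (6.49%, background 4.54%). Fisher's exact test called 0 higher in wt (0 unadjusted, background 0%). The positive interaction count was 0 with lists of equal length (4 unadjusted, background 1.67%) and 2 without trend and robust (2.90%, background 2.61%). The negative count was 4 with a −log10 q of at least 10 (10%, background 1.37%). Fisher's exact test was not run for the interaction. The share difference, 542 minus wt, was -0.523 with a −log10 q of at least 10 (exact permutation p = 0.0185) and -0.995 with the earlier library added (exact permutation p = 0.0333). Region 63, limb minus FB, turned to -11.6 with summit windows, and region 64, interaction, to -1.34 with a −log10 q of at least 10. The cause was not tested.

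With 1 library left out the counts were 15 to 19 for DFL, 5 to 10 for PFL, 19 to 26 for limb, 14 to 17 for FB, 0 to 1 for 542, 3 to 6 for wt, 0 to 1 for the positive and 1 to 3 for the negative interaction. Backgrounds were 9.14 to 11.1% for DFL, 7.93 to 10.5% for PFL, 21.2 to 27.6% for limb and 22.7 to 25.2% for FB. For 542 they were 0.722 to 1.36%, for wt 3.07 to 5.75%, and for the interaction 1.60 to 2.61% (positive) and 0.951 to 1.63% (negative). The shares were 0.964 to 1.63 for DFL minus PFL and -0.874 to -0.426 for 542 minus wt. With the replicate block the exact permutation p of the shares was 0.111 for DFL against PFL and 0.188 for 542 against wt, and the counts other than wt stayed within 1 of those without it. The lists hold regions past a threshold only, so low accessibility could not be measured.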
